A study of Mus musculus with 11 samples.

Results

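The transcriptome of splenic dendritic cells from naive C57BL/6 mice was described from the 6 arrays whose titles name naive conventional dendritic cells, of 11 arrays in the series. All genes with a probeset of their own were ranked on these arrays, and groups of receptors, antigen presentation genes, transcription factors and lineage genes were described by level and by spread between arrays. The mice carried no transferred tumour, and no treatment or genetic change is given for them. Spleen cells carrying both CD11c and MHC class II were sorted, with a stated purity above 95%, and their total RNA was amplified with a whole-transcript kit, labelled with biotin and read on an Affymetrix mouse gene array of 1 colour. The other 5 arrays of the series hold dendritic cells from mice with transferred Eµ-Myc lymphoma cells and were not used here. The labels give neither age nor sex, nor whether any 2 arrays shared a mouse, so SD values measure the spread between these 6 samples, which may be technical.

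Dendritic cells take up antigen, cut it into peptides and show these on MHC molecules to T cells. In mouse spleen, conventional dendritic cells fall into a type 1 lineage, which depends on Irf8 and Batf3 and is known for cross-presentation to CD8 T cells, and a type 2 lineage, which depends in part on Irf4 and Notch2 and is known for priming CD4 T cells. Plasmacytoid dendritic cells, known for type I interferon, carry less CD11c and MHC class II. Immature cells sample their surroundings with pattern recognition and scavenger receptors, while mature cells raise costimulatory molecules and the homing receptor Ccr7.

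MHC class II genes define these cells, and their promoters are the textbook example of a shared control sequence: an X box bound by the RFX complex and a Y box bound by NF-Y, on which the coactivator Ciita assembles. The 150 bases just before the start of 5 class II genes, from RefSeq on the GRCm38.p6 assembly, are shown 5′ to 3′ on the gene's strand. The 5 are examples that all hold the Y box core described next, and they are not the 5 highest genes of the class II list. Capitals mark the Y box core TGATTGG and the X box core, which is GCAAC, any 2 bases and ATG, each searched on both strands; these letters do not overlap one another in any of the 5.
H2-Aa: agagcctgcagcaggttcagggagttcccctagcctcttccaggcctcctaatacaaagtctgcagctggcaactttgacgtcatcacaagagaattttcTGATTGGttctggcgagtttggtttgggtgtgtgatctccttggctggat
H2-Eb1: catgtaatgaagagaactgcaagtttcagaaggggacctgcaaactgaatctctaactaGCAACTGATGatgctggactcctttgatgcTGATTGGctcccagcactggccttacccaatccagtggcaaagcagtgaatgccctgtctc
H2-Eb2: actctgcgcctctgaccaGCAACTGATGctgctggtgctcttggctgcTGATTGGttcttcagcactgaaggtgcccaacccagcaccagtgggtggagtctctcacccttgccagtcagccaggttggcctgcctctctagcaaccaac
H2-Ob: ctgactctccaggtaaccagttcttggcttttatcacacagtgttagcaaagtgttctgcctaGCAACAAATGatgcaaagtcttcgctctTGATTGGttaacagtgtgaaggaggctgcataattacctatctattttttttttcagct
H2-Oa: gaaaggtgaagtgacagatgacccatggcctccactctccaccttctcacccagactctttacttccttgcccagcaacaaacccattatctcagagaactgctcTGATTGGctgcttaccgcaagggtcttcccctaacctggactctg
The H2-Aa window is chr17:34287824-34287973 on the minus strand. The windows of H2-Eb1 (chr17:34305717-34305866), H2-Eb2 (chr17:34325525-34325674), H2-Ob (chr17:34238755-34238904) and H2-Oa (chr17:34092229-34092378) are on the plus strand. The Y box core began 50 bases before the start in H2-Aa, 61 in H2-Eb1, 102 in H2-Eb2, 59 in H2-Ob and 45 in H2-Oa. The X box core lay upstream of it in H2-Eb1, H2-Eb2 and H2-Ob, with 20, 20 and 18 bases between the 2 cores. Of the 14 measured genes of the MHC class II list, 11 had a promoter entry, 8 of these held the Y box core and 3 held the X box core. The search took these exact letters only, so an X or Y box with other letters was neither marked nor counted. A window without capitals for a box, such as H2-Aa for the X box, is therefore not shown to lack it. Among all 32851 windows of this length, 5.71% held the Y box core and 0.259% the X box core. Counted by gene, 6.7% of 27025 genes held the Y box core and 0.307% the X box core. Among the 744 genes of the brightest 5% with an entry, 73 (9.81%) held the Y box core and 3 (0.403%) the X box core. A match of letters is a description and does not show that a factor was bound.

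Values are log2 expression, as deposited by the authors after RMA, which subtracts background, equalises the distributions of the arrays and combines the probes of a probeset into 1 value. In all, 22180 genes were measured by a probeset naming them alone, and for the 1082 genes with more than 1 such probeset the one with the highest mean on these 6 arrays was used. The 1105 olfactory receptor genes, which work in the nose, set a dim mark on each array at their 95th percentile, which lay between 5.54 and 5.66. Above their own mark on all 6 arrays were 11789 genes, which is 53.2% of all genes. Another 1743 genes were above it on 1 to 5 arrays and 8648 on none. In the brightest 5% on all 6 arrays were 960 genes, which is 4.33% of all genes. Arrays correlated between 0.9942 and 0.997 over genes, and the number of arrays limits the precision. Probes differ in how well they bind, so a rank or a percentile describes a gene's place on this array and is not an order of transcript amounts.

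The 25 highest genes had means between 12.95 and 13.66. B2m, the light chain of MHC class I, and H2-Ab1, the beta chain of the I-A class II molecule, led them with equal means of 13.66. B2m lay between 13.65 and 13.68, and H2-Ab1 was 13.62, 13.65, 13.65, 13.70, 13.68 and 13.66 on arrays 1 to 6. The lowest and highest arrays differed by less than 0.1 for both genes, and for H2-Ab1 arrays 4 to 6 were all above arrays 1 to 3, by 0.04 on average. Of the 25, 8 were encoded in mitochondria, among them ND4, COX1 and CYTB of the respiratory chain, and 4 were ribosomal protein genes. The rest included H2-Aa, the I-A alpha chain, the lysosomal genes Psap and Plbd1, the ferritin heavy chain Fth1, the actin bundler Lcp1, the Ly6 family gene Ly6e and the chaperones Hspa1a and Hspa8. Il1b, the precursor of interleukin 1β, was the only member of the cytokine list among them, between 12.75 and 13.14 with a median of 13.03.

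The label was checked against the genes that mark the sort. Itgax, which encodes CD11c, lay between 12.05 and 12.21 with a median of 12.08, at the 99.4 percentile of all genes by its mean. H2-Aa lay between 13.12 and 13.24 with a median of 13.23. Together with H2-Ab1 these 3 markers were in the brightest 5% on every array, which the sort itself nearly forces. Cd74, the invariant chain, was not analysed here. Of 18 measured genes that mark conventional dendritic cells as a whole, 18 were above the dim mark and 12 in the brightest 5%, with a median percentile of 98. Flt3, the receptor for the growth factor that sustains these cells, had 11.51 ± 0.09 (SD, n = 6). Zbtb46, a transcription factor that marks the conventional lineage, had 9.20 ± 0.07. The peptidase gene Dpp4, the immune checkpoint gene Btla and the kynurenine pathway enzyme Kmo lay between 10.90 and 11.71 on every array.

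**Figure D1:**
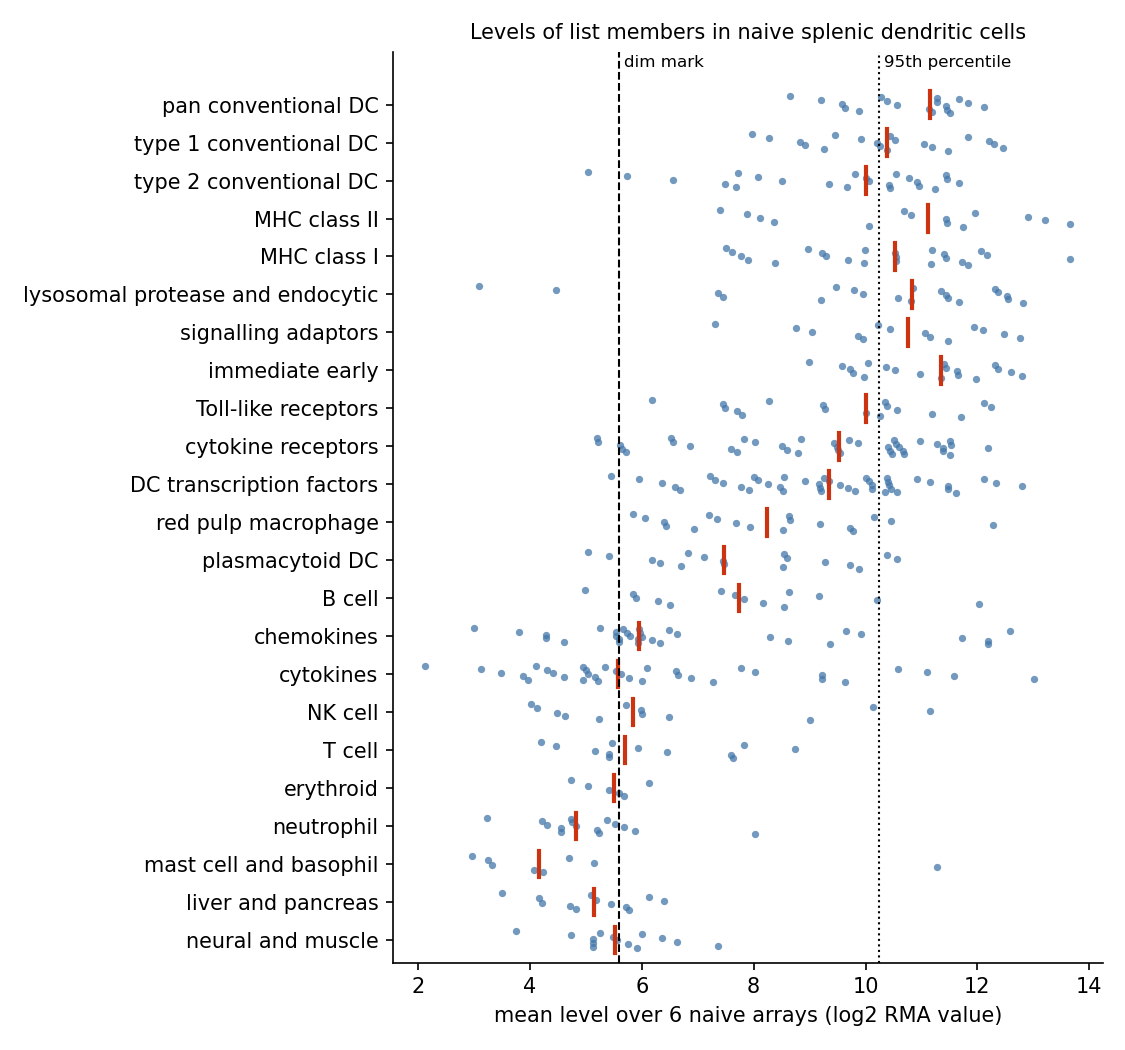
Mean log2 level over the 6 naive arrays (horizontal axis) of each measured member (points) of 23 gene lists, with the list's median (red bar), the mean dim mark (dashed) and the mean 95th percentile of all genes (dotted). Medians of the conventional dendritic cell, MHC and lysosomal protease lists lie near or right of the dotted line and that of the plasmacytoid list lies left of it, at 7.47, while those of the neutrophil, mast cell and liver lists lie left of the dashed line.

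Genes of the type 1 lineage were all above the dim mark: 19 of 19 measured, with 8 in the brightest 5% and a median percentile of 95.6. Cd8a, the surface protein by which splenic type 1 cells were first recognised, lay between 11.64 and 12.09 with a median of 11.83. Xcr1, the chemokine receptor that is restricted to this lineage, lay between 10.19 and 10.62 with a median of 10.34, and Batf3, which the lineage requires, between 9.15 and 9.44 with a median of 9.23. All 3 genes were highest on array 4 and lowest on array 3. These extremes were not particular to the lineage. The means of the pan conventional, MHC class I, MHC class II and integrin lists had them too. Irf8, the master regulator of the lineage, varied less, with 11.48 ± 0.06 (SD, n = 6); its other probeset had a mean of 7.25. Naaa, an amidase gene, and Wdfy4, which is needed for cross-presentation, had 12.46 ± 0.09 and 12.30 ± 0.07. Itgae, which encodes CD103, was the lowest of the list, between 7.66 and 8.28 with a median of 7.98.

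Genes of the type 2 lineage were above the mark for 21 of 23, with 9 in the brightest 5% and a median percentile of 93.6. Sirpa, a receptor for Cd47 and a surface marker of the lineage, lay between 11.39 and 11.48 with a median of 11.45. Cd4, carried by most splenic type 2 cells, lay between 11.14 and 11.73 with a median of 11.52, and was highest on array 6 and lowest on array 1. Clec4a4, the lectin recognised by the 33D1 antibody, had 10.96 ± 0.08 and Cd209a, a DC-SIGN relative, 11.25 ± 0.14 (SD, n = 6); the other probeset of Cd209a had a mean of 9.61. Notch2, on which the Esam-positive subset depends, had 10.92 ± 0.10, and Esam itself lay between 7.43 and 7.97 with a median of 7.68. Irf4 had 9.82 ± 0.13. The lectin genes Mgl2 and Clec10a, which mark type 2 cells of other organs, were above the mark on 5 and 0 arrays. The list's mean moved by 0.13 over the 6 arrays and that of the type 1 list by 0.28; in RNA from bulk samples, fewer cells of a type and less RNA per cell cannot be told apart.

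Markers of plasmacytoid cells were lower. Of 17, 15 were above the mark and 2 in the brightest 5%, with a median percentile of 68.2. Those 2 were Tlr9, an endosomal DNA receptor, and Irf7, which drives interferon genes; conventional cells also express both. Siglech, the surface marker of the lineage, lay between 6.80 and 7.32 with a median of 7.10, and the gut-homing receptor Ccr9 between 7.38 and 7.54 with a median of 7.47. Both were above the mark on all 6 arrays. Tcf4, the regulator of the lineage, had 8.53 ± 0.08 (SD, n = 6).

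Genes of mature dendritic cells were present as well, with 20 of 20 above the mark, 5 in the brightest 5% and a median percentile of 90.6. Ccr7, which guides cells to the T cell zone, lay between 11.35 and 11.67 with a median of 11.59. Apol7c and the costimulatory genes Cd80 and Cd86 were also among the brightest, while Fscn1, an actin bundler of mature cells, had 10.35 ± 0.12 and the chemokine Ccl22 9.91 ± 0.09 (SD, n = 6). Ccl17, another chemokine of mature cells, was near the mark, between 5.73 and 6.02 with a median of 5.99.

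**Figure D2:**
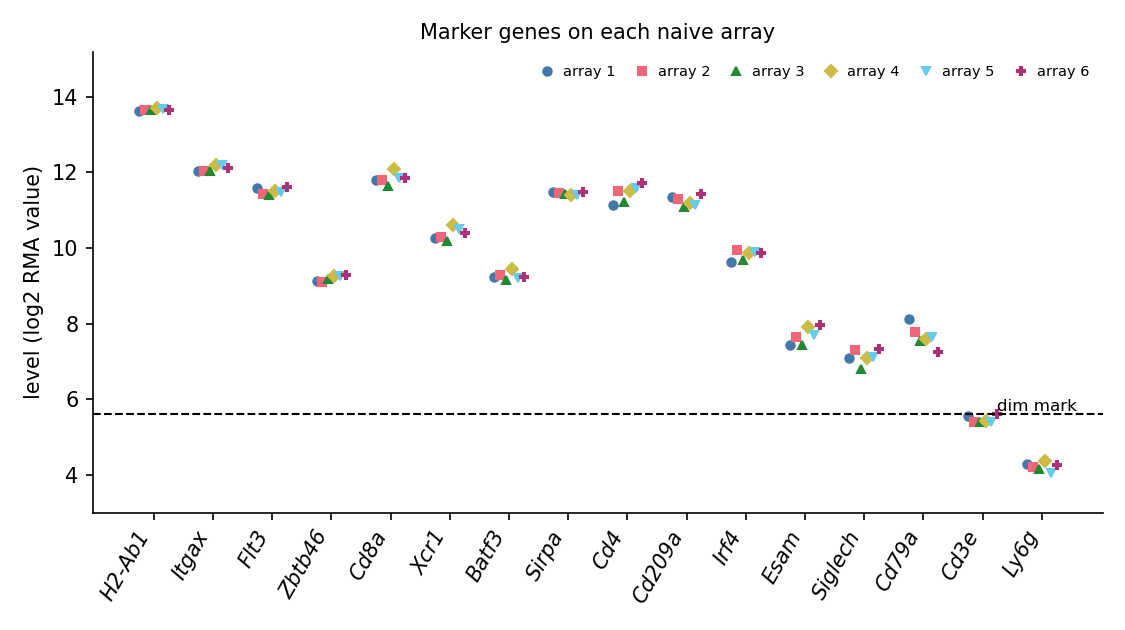
Log2 level (vertical axis) of 16 marker genes on each of the 6 naive arrays (symbols), with the mean dim mark (dashed). Itgax lies between 12.05 and 12.21 and Cd3e of T cells between 5.39 and 5.60, beside the mark; the arrays lie closer together for Sirpa than for Cd4 or Cd79a.

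Antigen presentation genes ranked high throughout. For MHC class II, 14 of 14 genes were above the mark and 9 in the brightest 5%, with a median percentile of 97.9. H2-Eb1, the I-E beta chain, had 12.90 ± 0.04 (SD, n = 6). H2-Eb2, a related beta chain gene whose window carries the same X and Y cores, varied more, between 11.14 and 11.72 with a median of 11.49; its lowest value was on array 3 and its highest on array 6. H2-DMa, which loads peptides, and H2-Oa and H2-Ob, which restrain that loading, had 11.74 ± 0.08, 11.95 ± 0.07 and 10.81 ± 0.08. Ciita, the coactivator of the pathway, lay between 11.40 and 11.50 with a median of 11.47. Of the RFX subunits, Rfx5 had 10.06 ± 0.12, Rfxank 8.36 ± 0.10 and Rfxap 8.12 ± 0.08. H2-DMb1 and H2-DMb2 are near-identical copies whose probes can share signal, so their means of 7.88 and 10.69 are uncertain. Marchf1, the ligase that removes class II molecules from the surface of immature cells, was the lowest of the list at 7.39 ± 0.12.

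For MHC class I, 23 of 23 genes were above the mark and 12 in the brightest 5%, with a median percentile of 96.3. After B2m came the chaperone Calr (12.18 ± 0.03) and the heavy chain gene H2-K1 (12.06 ± 0.04, SD, n = 6), which can share signal with other heavy chains. Tap1 and Tap2, the subunits of the peptide transporter, had 11.43 ± 0.11 and 9.22 ± 0.06, and the immunoproteasome subunit Psmb8 had 11.18 ± 0.06. Nlrc5, the class I counterpart of Ciita, lay between 8.99 and 9.37 with a median of 9.35, so 1 array was apart from the other 5. The presenters of lipids and of vitamin metabolites, Cd1d1 and Mr1, had the lowest means of the list, and Mr1 ranged from 6.92 to 7.72.

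The lysosomal and endocytic list held 18 of 20 genes above the mark and 12 in the brightest 5%, with a median percentile of 97.2. Ifi30, the reductase that opens disulfide bonds of antigen, lay between 12.74 and 12.87 with a median of 12.81. Ctss, the cathepsin that cuts the invariant chain in dendritic cells, had 12.53 ± 0.04 (SD, n = 6) and the cathepsin inhibitor Cst3 12.54 ± 0.07. Ctsl, which does that work in thymic epithelium, lay between 7.20 and 7.68, and Ctsk and Atp6v0d2, known from osteoclasts, were above the mark on no array. Cybb and Cyba, which form the membrane core of the phagocyte oxidase, were both in the brightest 5%.

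All 17 members of the Toll-like receptor list were above the mark and 5 were in the brightest 5%. Of the receptors themselves, Tlr3, which senses double-stranded RNA, lay between 10.89 and 11.36 with a median of 11.20, and Tlr9 between 10.46 and 10.66 with a median of 10.57. Tlr11 and Tlr12, which bind profilin of protozoa, had 10.26 ± 0.12 and 8.28 ± 0.24 (SD, n = 6). Tlr4, the receptor for lipopolysaccharide, was the lowest of the list, between 5.83 and 6.31 with a median of 6.24. Tlr2, for bacterial lipoproteins, was between 7.26 and 8.07, with the lowest value on array 1. Unc93b1, which carries the nucleic acid receptors to endosomes, had 12.25 ± 0.04, and the Cd180 and Ly86 pair, a homologue of the lipopolysaccharide complex, had 11.70 ± 0.09 and 12.11 ± 0.07. Of the 12 adaptors and kinases below these receptors, 12 were above the mark and 0 in the brightest 5%; the adaptors Myd88 and Ticam1 had 10.41 ± 0.16 and 7.22 ± 0.11.

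Cytosolic sensors were likewise above the mark, 18 of 18, with Sting1, the adaptor for cyclic dinucleotides, as the only one in the brightest 5%, between 10.24 and 10.66 with a median of 10.47. Aim2, a DNA sensor, had 10.22 ± 0.07 and Ifih1, an RNA helicase sensor, 9.93 ± 0.06 (SD, n = 6). The inflammasome gene Nlrp3 had 9.17 ± 0.09. Cgas, the enzyme upstream of Sting1, varied from 6.83 to 7.62 with a median of 7.37.

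Surface receptors for uptake were more divided. Of 28 C-type lectins, 18 were above the mark on all arrays, 5 on some and 5 on none, with a median percentile of 61.5. Clec7a, the β-glucan receptor Dectin-1, lay between 11.47 and 11.85 with a median of 11.63, and Ly75, the uptake receptor DEC-205, between 9.21 and 9.60 with a median of 9.49. Clec4e and Clec4d, receptors for mycobacterial glycolipid, were above the mark on no array. Among scavenger and phosphatidylserine receptors, 15 of 19 were above the mark. Havcr2, which encodes TIM-3, had 12.26 ± 0.12 and Cd36 10.53 ± 0.15 (SD, n = 6), while the macrophage receptors Marco and Msr1 lay between 6.08 and 6.76. Of 14 Fc receptor genes 11 were above the mark; the shared signalling chain Fcer1g had 12.47 ± 0.07, the inhibitory Fcgr2b 10.37 ± 0.16 and the activating Fcgr3 6.93 ± 0.29. Fcer1a, the high-affinity IgE receptor chain, had a highest value of 3.19.

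Of 24 chemokine receptors, 17 were above the mark and 3 in the brightest 5%: Ccr7, Cxcr4 and Gpr183, an oxysterol receptor that positions splenic type 2 cells. Cxcr4 lay between 11.08 and 11.45 with a median of 11.40 and Gpr183 between 10.69 and 10.98 with a median of 10.78. Ccr1, Ccr4, Ccr8 and Cxcr6 were above the mark on no array. The ligands had a median percentile of 50.1, beside 60.4 for the receptors and 50 for all genes. Of 31 chemokines 18 (58.1%, beside 53.2% of all genes) were above the mark and 4 were in the brightest 5%. Those 4 were Ccl5 (12.58 ± 0.13), Ccl3 (12.19 ± 0.25), Cxcl9 (12.19 ± 0.13) and the membrane-bound Cxcl16 (11.73 ± 0.12, SD, n = 6). Ccl3 was the most variable of them, from 11.72 to 12.41, and Cxcl10, like Cxcl9 a ligand of Cxcr3, ranged from 8.14 to 9.01.

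Cytokine genes had a median percentile of 42.6. Of 34, 15 were above the mark (44.1%, beside 53.2% of all genes) and 16 were above it on no array. Beside Il1b, the brightest 5% held Tgfb1, a regulatory cytokine, at 11.59 ± 0.07, and Ltb, a lymphotoxin chain, at 11.09 ± 0.14 (SD, n = 6). Tnf lay between 10.13 and 10.86 with a median of 10.65. Il12b, the shared subunit of interleukins 12 and 23, lay between 8.81 and 9.58 with a median of 9.27, whereas its partners Il12a and Il23a were above the mark on no array, nor were Il10, Ifnb1 and Ifng. Il6 was above it on 4 arrays. Ebi3, which pairs with Il27, had 9.63 ± 0.20, but its other probeset had a mean of 5.40. Receptors were denser than ligands: 34 of 38 cytokine receptor genes (89.5%) were above the mark and 13 in the brightest 5%. Their median percentile was 90.1. Ifngr1 had 12.19 ± 0.05, the shared signal chain Il6st 11.52 ± 0.10, Csf2ra of the GM-CSF receptor 11.51 ± 0.22, Il10ra 11.39 ± 0.19 and Kit, the stem cell factor receptor, 11.27 ± 0.09. Il1r2, a decoy receptor for interleukin 1, lay between 11.02 and 11.85 with a median of 11.36, and the signalling receptor Il1r1 between 4.99 and 5.50, above the mark on no array.

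Of 29 costimulatory and coinhibitory genes, 23 were above the mark and 8 in the brightest 5%. Cd80 lay between 11.26 and 11.82 with a median of 11.35, Cd86 between 10.49 and 10.92 with a median of 10.69, and Cd40 between 9.42 and 9.54 with a median of 9.51. Cd40, which receives help from T cells, was the tightest of these 3. Slamf7, a self-binding receptor, and Icosl, the ICOS ligand, had 12.49 ± 0.08 and 11.90 ± 0.08 (SD, n = 6). The ligands of PD-1, Cd274 and Pdcd1lg2, had 10.24 ± 0.14 and 8.13 ± 0.11, and Cd70 was above the mark on no array. Among inhibitory receptors and their phosphatases, 19 of 19 were above the mark; Ptpn6, which encodes SHP-1, had 12.10 ± 0.04 and Lilrb4a 11.73 ± 0.18. Of 25 integrin and adhesion genes 24 were above the mark. Itgb2, the partner of CD11c, lay between 11.84 and 12.21 with a median of 12.12, and Selplg, a selectin ligand, had 12.43 ± 0.06.

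Of 43 transcription factors known from dendritic cells, 42 were above the mark and 14 in the brightest 5%, with a median percentile of 88.7. Nr4a1, an orphan nuclear receptor induced at once by stimuli, lay between 12.64 and 13.02 with a median of 12.78. Id2, which shields the conventional lineage from E proteins, had 12.12 ± 0.07, the NF-κB subunits Rel and Relb 12.34 ± 0.12 and 10.42 ± 0.05, Stat3 11.47 ± 0.05 and Etv6 11.62 ± 0.11 (SD, n = 6). The myeloid master factor Spi1 had 10.41 ± 0.08. Bcl11a and Rbpj, which mediates Notch signals, were among the brightest by 1 probeset (10.56 and 10.45), while another probeset of each had a mean of 5.54 and 6.58. Mycl, used by dendritic cells in place of Myc, lay between 7.59 and 8.10 with a median of 7.95, and Myc between 8.49 and 9.19 with a median of 8.93. Mycn was above the mark on no array. Among 23 lineage factors of other cells, 12 were above the mark (52.2%, beside 53.2% of all genes). Their median percentile was 47, and 0 were in the brightest 5%. The highest of them was Spic, the factor of red pulp macrophages, between 8.69 and 9.60 with a median of 9.27.

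The C/EBP family, which the series names in its title, had a median percentile of 65.8. Of 6 genes 5 were above the mark and 0 were in the brightest 5%. Cebpb lay between 6.77 and 7.24 with a median of 6.91, at percentiles of 60.41 to 65.6 on the 6 arrays. Cebpa had 7.58 ± 0.08, Cebpg, which lacks an activation domain, 8.45 ± 0.11, Cebpd 6.57 ± 0.15 and the stress-induced Ddit3 7.60 ± 0.09 (SD, n = 6). Cebpe, a granulocyte factor, was above the mark on 4 arrays. Cebpb was highest on array 3 and lowest on array 6.

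Signalling adaptors were uniform: 14 of 14 were above the mark and 8 in the brightest 5%, led by the pan-leukocyte phosphatase Ptprc at 12.77 ± 0.05, and the list's mean moved by 0.06 over the arrays. Interferon-stimulated genes, 22 of 22, were above the mark, with a median percentile of 73.9; the ubiquitin-like Isg15 lay between 8.54 and 8.92 and its protease Usp18 between 9.72 and 10.38. Of 29 cell cycle genes, 29 were above the mark and 3 in the brightest 5%. Mki67, expressed in dividing cells, lay between 10.72 and 11.08 with a median of 10.96, and the replication helicase gene Mcm5 between 9.84 and 10.45 with a median of 10.25. Genes induced within minutes of a stimulus were high, with 19 of 19 above the mark, 12 in the brightest 5% and a median percentile of 98.4. Zfp36, which destabilises cytokine transcripts, had 12.60 ± 0.11, and Fos lay between 11.36 and 11.77 with a median of 11.65. Heat shock genes, 12 of 12 above the mark, included Hspa1a between 12.86 and 13.27 and Hspa1b between 12.48 and 12.84, which are near-identical copies.

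Markers of other cells were checked in the same way. Of 14 B cell genes 13 were above the mark, with a median percentile of 71.2 and a list mean between 7.73 and 7.88. Cd79a lay between 7.25 and 8.12 with a median of 7.62, Ms4a1, which encodes CD20, between 8.01 and 8.36 with a median of 8.13, and the lineage factor Pax5 between 5.78 and 5.97. Cd79a was highest on array 1 and lowest on array 6. Ighm, the heavy chain of IgM, lay between 11.90 and 12.19, but the lowest of its 7 probesets had a mean of 5.66. Of 12 T cell genes 6 (50%) were above the mark, beside 53.2% of all genes. Among these were Cd5, Cd8b1, Ccr6 and Cd6, with means of 8.73, 7.63, 7.60 and 6.45. Cd3e was above the mark on 1 array, and Cd3d and Cd3g on none. Of 12 NK cell genes 6 (50%) were also above the mark and 1 was in the brightest 5%, while Gzma, Gzmb, Eomes and Klrb1c were above the mark on no array. Of 15 neutrophil genes 2 were above the mark, and S100a8, S100a9 and Ly6g were above it on no array, with highest values of 3.42, 5.46 and 4.36. Of 8 mast cell and basophil genes only Kit was above the mark. Of 6 erythroid genes 2 were above it. Of 13 stroma and endothelium genes 8 (61.5%) were above it, and of 7 platelet and megakaryocyte genes 4 (57.1%). Both shares stand beside 53.2% of all genes, and 0 genes of either list were in the brightest 5%. Of 26 genes of liver, pancreas, nerve and muscle 7 (26.9%) were above it and 0 in the brightest 5%, including Mbp between 7.33 and 7.39, so a value above the dim mark does not by itself show expression. Xist, transcribed from the inactive X chromosome, lay between 11.12 and 11.59 on all 6 arrays, and the Y-linked genes Uty, Kdm5d and Eif2s3y were above the mark on no array.

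Arrays agreed closely for most genes. The median SD over the 6 arrays was 0.121 on the log2 scale over all genes, 0.111 for genes above the mark and 0.082 for the brightest 5%. It was 0.138 for genes below a level of 4 and 0.071 for the 155 genes between 12 and 15. Of the 46 lists, 43 moved by less than 0.3 between their lowest and highest array, with a median range of 0.15. In the brightest 5%, the genes with the smallest variance relative to genes of their level were B2m (SD 0.009), the splicing factor Hnrnpm (SD 0.011) and the vesicle GTPase Arf1 (SD 0.012). B2m had percentiles of 99.99 to 100 on the 6 arrays. How far the equalising of distributions by RMA narrows the spread of such genes was not tested. A limma fit asked which genes varied between arrays more than genes of their level. None of 22180 (0%) passed a Benjamini-Hochberg adjusted p of 0.05; the smallest adjusted p was 0.947, and 778 genes had an unadjusted p under 0.05. On simulated data the same test recovered 0 of 100 genes with 4 times the spread and 1 of 100 with 7 times. It therefore had almost no power as set up here, and spread is given as a description.

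The largest spread among the lists was in red pulp macrophage markers, genes of the resident cells that clear old red cells and recycle iron. All 18 measured were above the mark, and their median SD was 0.351. The list mean was 8.45, 8.80, 7.80, 8.22, 8.33 and 8.12 on arrays 1 to 6, so arrays 2 and 3 were the extremes, 1.00 apart. Slc40a1, the iron exporter, was 9.03, 9.79, 7.39, 8.25, 8.81 and 8.53 on these arrays. Hmox1, which breaks down haem, lay between 9.35 and 10.93 with a median of 10.16, and the complement gene C1qb between 9.21 and 10.51 with a median of 9.76. Vcam1, an adhesion molecule, Cd5l, a secreted scavenger protein, and Mrc1, the mannose receptor, had the same extremes. In all, 13 of the 18 were highest on array 2 and lowest on array 3, as were 2.97% of all genes above the mark; the pattern was singled out after the values were seen. Cd68 and Adgre1, which dendritic cells also express, and Marco, Mertk and Timd4 were outside it. Without arrays 2 and 3 the median SD of the list was 0.183. Ccr3, a chemokine receptor known from eosinophils, had the same extremes, at 6.06 on array 3 and 8.60 on array 2. So did Fcna, a ficolin named here after its values were seen, at 7.20 and 8.89. The part of sorted macrophages in these differences was not tested.

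**Figure D3:**
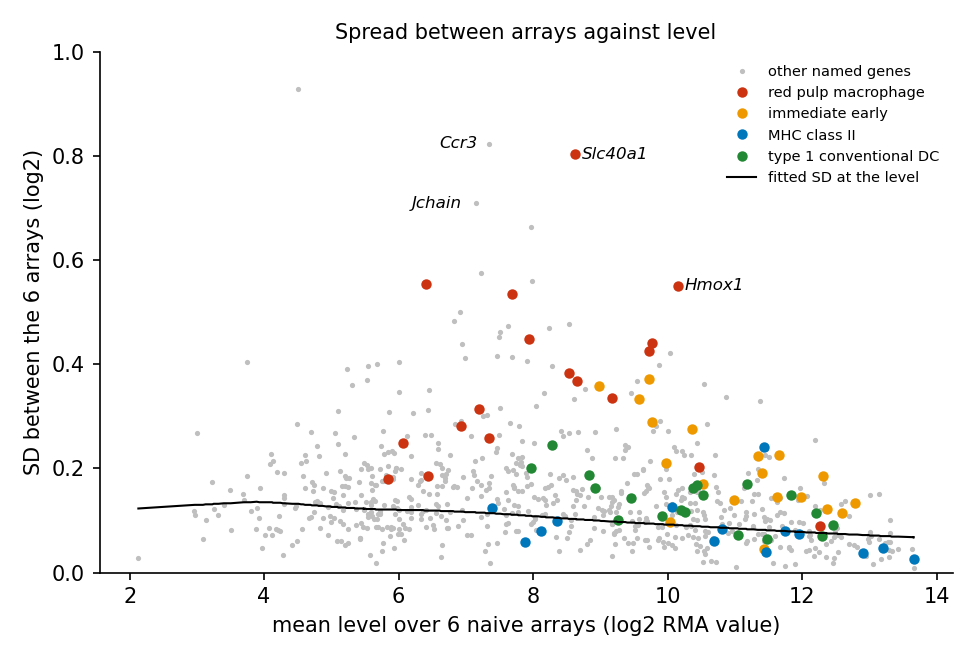
SD between the 6 naive arrays (vertical axis, log2) against mean log2 level (horizontal axis) for the list members and ranked genes, with 4 lists coloured and the fitted SD at each level as a line. Macrophage markers such as Slc40a1 (SD 0.803) and Hmox1 (SD 0.550) lie far above the line, while the MHC class II genes other than H2-Eb2 (SD 0.241) have SDs of at most 0.125.

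Immunoglobulin genes varied by another pattern. The 22 measured, taken as a family by symbol after the values were seen, had a median SD of 0.611. Their mean was 7.25, 6.31, 7.31, 6.35, 6.55 and 6.12 on arrays 1 to 6, and 18 of the 22 had their 2 highest values on arrays 1 and 3. Of the 14 above the mark 11 had, against 6.41% of all genes above the mark. Jchain, the joining chain of secreted IgM and IgA, was 7.90, 6.22, 8.09, 6.82, 7.04 and 6.86, with arrays 1 and 3 on top as well. The B cell list did not have this pattern: its mean was 7.88, 7.78, 7.73, 7.81, 7.78 and 7.78. Without arrays 1 and 3 the family's median SD was 0.225. The mean of the plasma cell list, which holds Jchain, was 7.21, 7.02, 7.24, 7.09, 7.03 and 7.07, also highest on arrays 1 and 3. Only 2 of the list's 9 genes, Jchain among them, had their 2 highest values on those arrays. Of its 9 genes, 7 were above the mark on all 6 arrays, among them Irf4, which dendritic cells also express, while Sdc1 was above it on 5 arrays and Tnfrsf17 on 0. The part of plasma cells was not tested.

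Of the remaining lists, immediate early and monocyte genes had the widest ranges. The immediate early mean was 10.83 on array 1, its lowest, and 11.29 on array 2, its highest. Ier3, a survival gene, lay between 9.06 and 10.21 with a median of 9.78, and the zinc finger factor Egr2 between 8.30 and 9.24 with a median of 9.08; both were lowest on array 1. The monocyte mean lay between 7.98 and 8.38. Ly6c2, the surface marker of classical monocytes, lay between 7.75 and 8.96 with a median of 8.04, and was highest on array 1. Chil3, a chitinase-like gene, was 6.31 at most, above the mark on 1 array, with a median of 4.25.

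**Figure D4:**
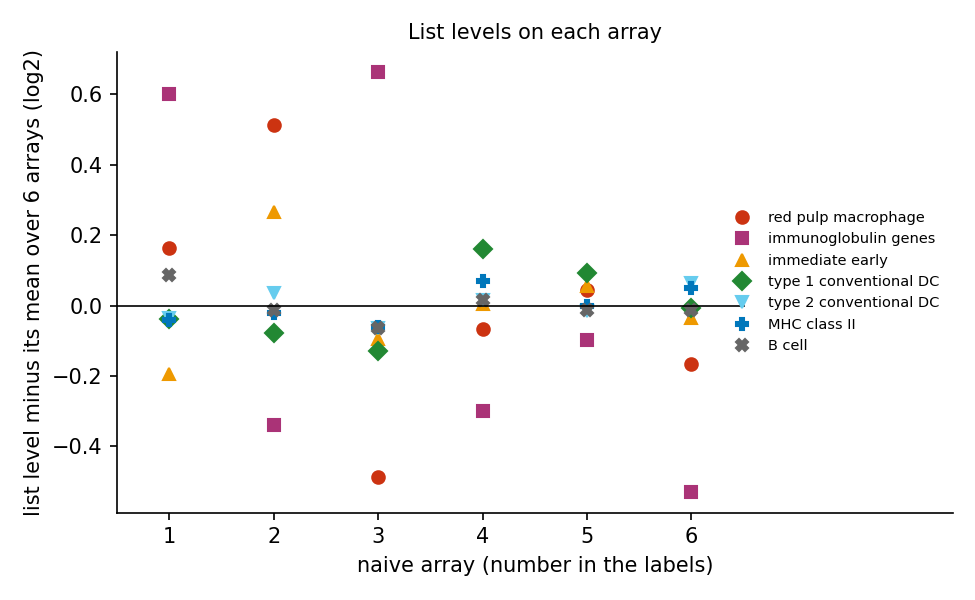
Mean log2 level of 7 groups on each naive array minus the group's mean over the 6 arrays (vertical axis), by array number in the labels (horizontal axis). Macrophage markers are highest on array 2 and lowest on array 3, immunoglobulin genes are highest on arrays 1 and 3, and the MHC class II and B cell lists stay near 0.

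Arrays numbered 1 to 3 and 4 to 6 were set side by side because earlier work on these data saw the numbers stand apart; the labels do not explain them. With 3 against 3 an exact test cannot go below p = 0.1, so differences are described and not tested. Among genes above the mark, the groups did not overlap for 2768 (23.5%). Over all genes, arrays 4 to 6 were all above arrays 1 to 3 for 2296 genes (10.4%) and all below for 1619 (7.3%). The direction depended on scaling: the counts above and below were 2158 and 1729 after another quantile normalisation, 4259 and 786 with arrays shifted to a common median, and 976 and 4922 with a common 75th percentile, under which the median of all genes moved by 0.041 and -0.075. For Dpp3, a peptidase, the values were 9.61, 9.69 and 9.68 against 10.40, 10.39 and 10.49, and for Lyz1, a lysozyme gene that shares sequence with Lyz2, 8.14, 8.13 and 8.16 against 9.28, 8.89 and 8.56. Igfbp7, a secreted binding protein, was higher in arrays 4 to 6 by 0.89, and Ramp3, a receptor partner, differed by -0.66. Il1r2 was lower too, at 11.85, 11.48 and 11.62 against 11.07, 11.02 and 11.24. Of the type 1 lineage genes, 9 of 19 did not overlap, all higher in arrays 4 to 6, with a median difference of 0.17 over the list; under the 3 other scalings that median lay between 0.10 and 0.22 and 4 to 10 genes did not overlap. Tlr12 differed by 0.41, Xcr1 by 0.26 and Tlr3 by 0.25. The direction was not particular to this list. Wholly higher in arrays 4 to 6 were also 8 of 18 genes that mark conventional dendritic cells as a whole. The same held for 7 of 17 genes of the Toll-like receptor list and 9 of 25 integrin and adhesion genes. None of these 3 lists had a gene wholly lower, while 5 of 22 immunoglobulin genes were wholly lower and 0 wholly higher. The median difference of the type 2 list was 0.01 and lay between -0.06 and 0.05 under the other scalings. Of the cell cycle genes, 11 of 29 did not overlap, all higher in arrays 4 to 6, among them Mcm3 by 0.47 and Kif20a by 0.43. That count depended on the scaling: it was 15 with a common median, but 6 both after another quantile normalisation and with a common 75th percentile, each of which also placed 1 gene wholly lower in arrays 4 to 6. The median over the list was 0.12, and 0.05 to 0.16 under the other scalings.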

How the data were processed

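The members and gene lists were chosen with earlier results of these data known. Values were deposited by the authors as log2 expression, 1 per probeset and array, made with RMA per the submitters' processing notes; its version is not given in the sources used here. Of 41801 listed probesets, 7329 were blank on every array. Of the other 34472, 23521 named 1 gene in the given probe table, 1814 several and 9137 none; single-gene probesets were used, the highest by mean over these 6 arrays for each of 22180 genes. No filter on dim genes was applied.

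The 46 lists hold 770 genes, of which 704 were measured; families were added by symbol pattern after the values were seen. A gene was above the dim mark, or in the brightest 5%, when it was so on all 6 arrays, each by its own mark. Percentiles are over all genes. Spread was tested with limma 3.58.1 in R 4.3.3 (intercept fit, eBayes with trend and robust; variance against the fitted variance at that level, F distribution, upper tail, Benjamini-Hochberg adjusted p over all genes). On simulated data of 22180 genes it made 1 call and 0 false calls.

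Genes named are members of the lists, the 25 highest means, the 10 smallest variance ratios in the brightest 5%, and the 15 largest differences between arrays 1 to 3 and 4 to 6; the rule's further 25 largest variance ratios among genes past the spread test gave no gene, since none passed. The 25 largest ratios without that test were tabulated and plotted, and a gene named from these alone (Fcna) is marked as chosen after its values were seen. Predicted genes, small RNA genes, olfactory and vomeronasal receptors and antigen receptor segments were left out of the ranked parts. Alternatives were other dim marks and rules, probeset choices, scalings, variance models and each array left out.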

Additional observations from a re-analysis of the deposited data

Results flagged for a closer look

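On some results 1 of the 6 arrays stood apart from the other 5: the gap to the nearest array was wide for the whole range by Dixon's 95% criterion. Chance marks about 1 in 20 groups: 2 of 56 lists and families and 20 of 217 named genes were marked. The named genes were partly chosen by their values, and the share marked over all genes was not computed. Their count therefore cannot be set against the rate of chance. The sex-linked list had its lowest level, 6.26, on array 4 (nearest 6.40), and the mitochondrially encoded genes their highest, 13.01, on array 5 (nearest 12.93).

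On array 1, the low values were Ccl3 at 11.72, Egr2 at 8.30, Nlrp3 at 9.0 and Tlr4 at 5.83, and the high ones Chil3 at 6.31 and Cxcr6 at 5.04. On array 3, Cd1d1 was low at 7.43, Dpp4 at 11.58, Icosl at 11.74 and Id2 at 11.98, and Cd3d, below the dim mark, was high at 5.55. On array 5, Calr was high at 12.24, Lcp1 at 13.10 and ND4 at 13.73. On array 6, Nlrc5 was low at 8.99, Cebpe at 5.42, Ctsk at 4.22 and Gzma at 3.87, the last 2 below the dim mark on every array. Fcgr2b was high on array 2 at 10.68 and H2-DMb2 on array 4 at 10.81. Nlrc5 had the widest gap for its range, with the other 5 arrays at 9.35 to 9.37.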

How the results depend on the processing

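Leaving out each array in turn, 11829 to 11902 genes were above the dim mark and 965 to 977 in the brightest 5%, and the spread test called 0 to 0. It also called 0 genes under every other scaling, probeset choice, variance model, covariate and filter run. The test had almost no power in its main setting, so these counts of 0 carry little information. The genes above the mark numbered 9180 with the mark at the 99th percentile of olfactory receptors, 10424 with it at the median of all genes, and 11671 to 12630 under the other rules, probeset choices and scalings. Genes whose arrays 1 to 3 and 4 to 6 did not overlap numbered 5898 at a common 75th percentile, against 3915, and 3887 and 5045 under the other scalings. The median SD of macrophage markers was 0.262 to 0.282 with array 2 or 3 left out and 0.183 without both; that of immunoglobulin genes was 0.55 to 0.578 with array 1 or 3 left out and 0.225 without both. These leave-outs were chosen after seeing the data, as were the alternatives for brightest counts and percentiles. Of 690 list counts above the mark, 672 stayed within 1.5 times the main count, of 460 brightest counts 451 did, and of 1736 percentiles of named genes 1637 moved by no more than 1 SD between arrays. No paired analysis was possible because only 1 group of arrays is described. Levels near the dim mark are limited by signal over background, and the genes of other tissues above it bound what a value there shows.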
